A study of Mus musculus with 6 samples.

Results

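Sensory neurons of the dorsal root ganglia detect touch, limb position, tissue acid and painful force with ion channels that open on mechanical load, on protons or on intracellular calcium. The 8 genes described here encode such channels or a protein that acts on them: Piezo1, Piezo2, Tmem120a, Asic1, Asic2, Asic3, Ano1 and Ano3. They were picked out by gene symbol from a table of 16613 genes, with earlier results of these data known, and all 8 were among the 15043 genes tested. Whole ganglia of mice aged 6 months were compared by mRNA sequencing. The knockout group (Kif2a fl/fl; Avil cre) carried loxP-flanked alleles of Kif2a, a microtubule-depolymerising kinesin, together with Cre recombinase under the control of Avil, a gene of sensory neurons. The control group (Kif2a fl/fl) carried the same floxed alleles without the Cre, so both groups have the floxed alleles and the Cre is in the knockout group alone. There were 3 libraries per group. The labels do not say that the libraries came from separate animals, so part of the library-to-library spread may be technical. Where libraries are not paired by number, a p-value sets the group difference against that spread. Where same-numbered libraries are paired, a p-value sets the difference against the spread left after each pair's shared level is removed. The series title places the study in nociception, the sensing of harmful stimuli.

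PIEZO channels are mechanically gated cation channels. PIEZO2 is the main transducer of gentle touch and of proprioception in sensory neurons, while PIEZO1 is best known from vessels and other non-neuronal cells. TMEM120A, also called TACAN, was first proposed as a channel for mechanical pain and was later found to dampen PIEZO2 currents. The acid-sensing ion channels (ASICs) are proton-gated sodium channels of the same superfamily as the epithelial sodium channel, and ASIC3 is prominent in sensory neurons that respond to acid in muscle and skin. Anoctamins are a family of calcium-activated chloride channels and lipid scramblases. ANO1 is a chloride channel of nociceptors that responds to heat and to calcium release, and ANO3 was reported in rat sensory neurons to enhance the sodium-activated potassium channel encoded by Kcnt1.

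Promoter sequences are shown for Ano3, which changed most among these genes, and for Asic1, Asic3 and Ano1, which share their lowest and their highest library. RefSeq windows (GRCm38.p6) of 300 bases, from 250 bases before to 50 after an annotated start, matched 7 of the 8 genes in 9 windows. Each is given 5′ to 3′ on the strand of its gene. The Ano3 windows are chr2:110950195-110950494 and chr2:110840010-110840309 on the minus strand, that of Asic1 is chr15:99691974-99692273 on the plus strand, that of Asic3 is chr5:24413201-24413500 on the plus strand, and that of Ano1 is chr7:144738524-144738823 on the minus strand. Capitals mark matches, on either strand, to any of 7 short motifs.
Ano3, first start: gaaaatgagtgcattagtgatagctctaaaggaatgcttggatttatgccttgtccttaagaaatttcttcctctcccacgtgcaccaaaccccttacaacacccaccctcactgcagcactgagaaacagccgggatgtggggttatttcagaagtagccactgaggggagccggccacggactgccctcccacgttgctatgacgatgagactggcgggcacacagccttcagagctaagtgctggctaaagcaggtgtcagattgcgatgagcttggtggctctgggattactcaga
Ano3, second start: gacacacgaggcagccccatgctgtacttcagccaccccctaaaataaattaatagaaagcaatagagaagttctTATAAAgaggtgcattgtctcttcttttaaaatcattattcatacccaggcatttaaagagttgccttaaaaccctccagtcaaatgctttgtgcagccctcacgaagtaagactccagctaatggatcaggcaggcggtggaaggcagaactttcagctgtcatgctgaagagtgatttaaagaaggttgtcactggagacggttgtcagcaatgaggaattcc
Asic1: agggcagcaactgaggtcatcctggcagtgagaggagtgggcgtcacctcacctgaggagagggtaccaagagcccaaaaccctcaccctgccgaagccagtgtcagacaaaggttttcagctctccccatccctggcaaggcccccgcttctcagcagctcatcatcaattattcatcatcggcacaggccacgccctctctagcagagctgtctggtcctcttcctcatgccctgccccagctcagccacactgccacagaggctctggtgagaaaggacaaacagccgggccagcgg
Asic3: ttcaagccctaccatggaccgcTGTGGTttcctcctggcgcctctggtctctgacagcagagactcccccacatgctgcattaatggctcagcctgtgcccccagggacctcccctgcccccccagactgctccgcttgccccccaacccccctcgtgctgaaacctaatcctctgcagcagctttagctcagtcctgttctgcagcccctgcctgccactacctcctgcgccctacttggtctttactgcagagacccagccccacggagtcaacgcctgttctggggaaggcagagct
Ano1: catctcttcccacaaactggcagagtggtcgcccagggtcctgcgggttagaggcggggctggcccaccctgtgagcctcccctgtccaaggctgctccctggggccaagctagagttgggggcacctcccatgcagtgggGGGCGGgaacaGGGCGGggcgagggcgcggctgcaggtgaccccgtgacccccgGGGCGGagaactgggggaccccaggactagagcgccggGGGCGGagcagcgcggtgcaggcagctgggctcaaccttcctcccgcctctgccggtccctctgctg
The motifs searched were TATAAA (found in 13.6% of all 32851 windows of the same length), CCAAT (37.4%), GGGCGG (35.7%), TGACGTCA (1.79%), TGANTCA with N for any base (7.81%), TGTGGT (16.8%) and TAATTA (5.29%), none of which contains another. Ano1 held GGGCGG at positions -109, -98, -55 and -17 from its start, in a window with 71.7% G and C. The second Ano3 window held TATAAA at position -175 and had 43.7% G and C, whereas the first Ano3 window and the Asic1 window held none of the motifs. Asic3 held TGTGGT at position -228. The median over all windows was 52.7% G and C. The Asic1 window, the Ano1 window and both Ano3 windows lie inside the annotated genes (GENCODE M21). Their outermost starts are at 99670368 for Asic1, 144751974 for Ano1 and 110950923 for Ano3. The counts are of whole genes, so they do not show which start of a gene was in use.

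Library totals ran from 16090726 to 19221415 counts. Kif2a was at 90.57, 85.69 and 88.52 CPM (counts per library size, with TMM normalization factors) in knockout replicates 1 to 3, against 105.6, 93.86 and 92.66 CPM in control replicates 1 to 3. The groups did not overlap, but Kif2a missed the threshold, at a log2 fold change of -0.14 (SE 0.07, blocked edgeR adjusted p = 0.284). Its exons share 19.2% of their positions with Dimt1 on the other strand. Whole-gene counts from whole ganglia do not separate a deleted exon from the rest of the transcript, nor neurons from other cells. Avil, whose sequence drives the Cre, fell to 44.7% of the control mean. Pan-neuronal markers summed to between 19916 and 25309 CPM in knockout libraries and between 18293 and 22435 CPM in control libraries. Control replicate 2 stands apart, with 1378 CPM from 7 skeletal muscle markers, against 6.196 to 63.56 CPM in the knockout libraries and 6.188 and 30.02 CPM in the other control libraries. Each result below is therefore also given without it where that matters.

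Of the 8 genes, Ano3 and Piezo2 fell in the knockout, and the other 6 did not pass. The words fell and rose are used of genes with an adjusted p under 0.05 in the edgeR quasi-likelihood fit that takes the replicate number as a block, and 3.6% of the tested genes passed in that fit (1.24% higher and 2.36% lower in the knockout). The fit with group as the only term was planned as the main fit, and the block as an alternative. In that main fit 0 of the 8 genes passed, as did 0% of all genes (825 genes had an unadjusted p under 0.05). Both calls therefore rest on the pairing of same-numbered libraries. In DESeq2 without the block 0 of the 8 passed, against 0.432% of all genes. Blocked limma-voom called the same 2 genes (3.77% of all genes), as did blocked edgeR scaled to pan-neuronal genes (6.14%). Blocked edgeR called 1, 2 and 5 of the 8 without pairs 1, 2 and 3, against 1.37%, 5.4% and 5.94% of all genes. Fits with a pair left out keep few residual degrees of freedom, so their p-values lean on variance estimates shared across genes. A pass in such a fit is weak support. The groups did not overlap in CPM for 2 of the 8 genes, Ano3 and Asic3, and for 11.1% of all genes.

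**Figure D1:**
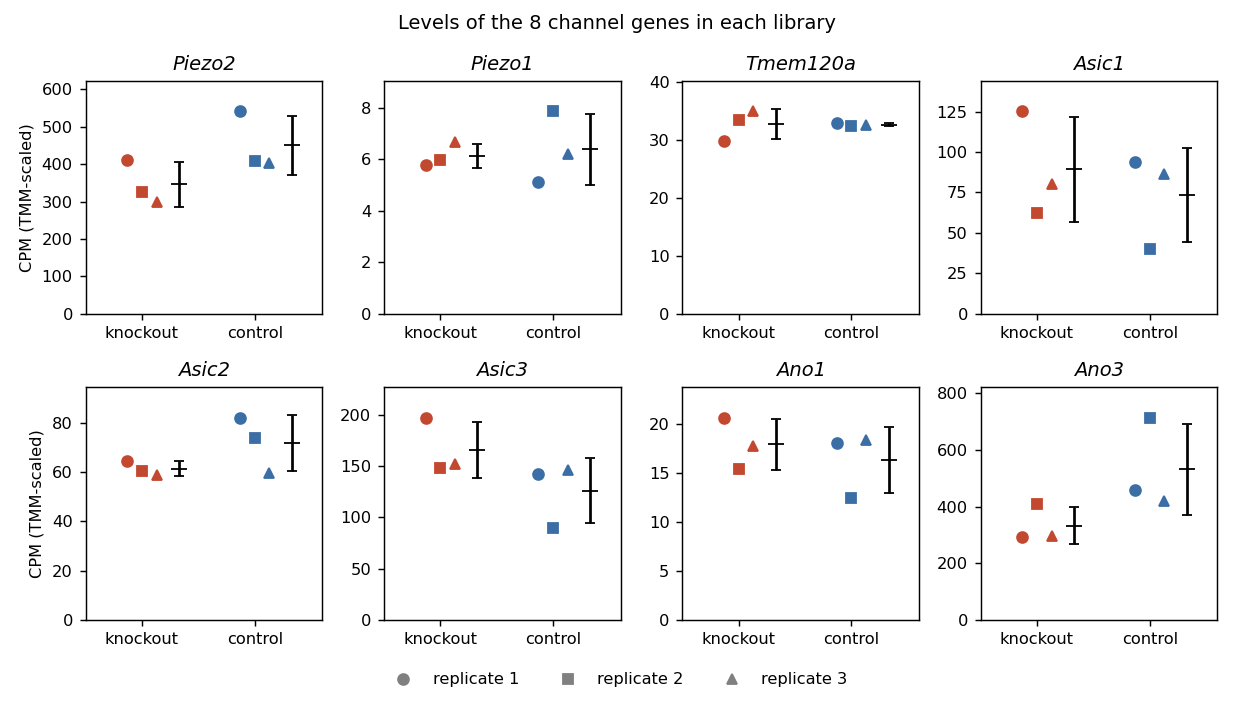
Level of each gene in TMM-scaled CPM (y axes, each from 0) in the 3 knockout and 3 control libraries; marker shape gives the replicate number, and the bar beside each group is the mean with its SD. All knockout libraries lie below all control libraries for Ano3 and above them for Asic3, and the groups overlap for the other genes.

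Piezo2, on chromosome 18, was lower in the knockout, at 76.7% of the control mean. It had 412.5, 326.8 and 298.3 CPM in knockout replicates 1 to 3, against 541.4, 408.5 and 402.1 CPM in control replicates 1 to 3. Replicate 1 was the highest library of each group, and knockout replicate 1 lay above control replicates 2 and 3, so the groups overlapped. Within each same-numbered pair the knockout was lower, by log2 ratios of -0.39, -0.32 and -0.43. Piezo2 fell by 0.38 on the log2 scale (SE 0.06, 95% interval -0.52 to -0.24, blocked edgeR adjusted p = 0.00843). Without the block the same fold change had an SE of 0.17 and an adjusted p of 0.914. With replicate pair 1 left out of the blocked fit it was -0.39 and did not pass (adjusted p = 0.0978), and it passed with pair 2 or pair 3 left out.

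Piezo1, on chromosome 8 (GRCm38, 122481698 to 122551329, minus strand), was detected at a low level, with 91 to 133 counts per library. At that depth counting error alone is 8.7% to 10.5% of a value. It had 5.773, 5.962 and 6.662 CPM in knockout replicates 1 to 3, against 5.097, 7.851 and 6.189 CPM in control replicates 1 to 3. The knockout values lay within the control range, and control replicate 2 was the highest library. The log2 fold change was -0.04 (SE 0.17, 95% interval -0.42 to 0.33 with the replicate block), and it was 0.15 with pair 2 left out. Exons of Piezo1 share 24.6% of their positions with Ctu2 on the other strand. Reads there cannot be told apart without strand, and Ctu2 was at 12.84 ± 0.656 CPM in the knockout and 12.42 ± 1.208 CPM in the control (SD, n = 3 each). Endothelial markers, 12 of 12 tested, summed to a median of 203.8 CPM in the knockout (highest 209.4) and 176.8 CPM in the control (lowest 159.3, highest 213.3).

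Tmem120a, on chromosome 5 (135735485 to 135744448, minus strand), was at nearly the same level in all libraries. It had 29.87, 33.49 and 34.92 CPM in knockout replicates 1 to 3, against 32.88, 32.35 and 32.56 CPM in control replicates 1 to 3. The knockout libraries lie on both sides of the controls, and the highest control library exceeded the lowest by a factor of 1.016. The log2 fold change was 0.00 (SE 0.08, 95% interval -0.18 to 0.19 with the replicate block). Its interval is the second narrowest of the 6 genes that did not pass, after that of Asic2. Its sign changed when libraries were scaled to the pan-neuronal genes (-0.07).

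The ASIC genes did not move together. Asic3 was higher in the knockout and Asic2 lower, while Asic1 varied most between libraries of a group, and 0 of them passed in the blocked edgeR fit. Asic3, on chromosome 5 (24413392 to 24417835, plus strand), had 197.6, 148.5 and 152.2 CPM in knockout replicates 1 to 3, against 142.9, 89.26 and 146.1 CPM in control replicates 1 to 3. The groups did not overlap, with the knockout above the control, as for 5.02% of all tested genes. Its log2 fold change was 0.42 (SE 0.13, 95% interval 0.11 to 0.72, blocked edgeR adjusted p = 0.145). It passed in DESeq2 with the replicate block (adjusted p = 0.0142), where 2.81% of genes did, and in blocked edgeR with pair 3 left out (0.60, adjusted p = 0.000405). The gap between the groups is small, with or without control replicate 2. The lowest knockout library had 148.5 CPM and the highest control library, replicate 3, had 146.1 CPM. Counting error alone is 1.6% to 2.6% of an Asic3 value. In the fit without the block, leaving out control replicate 2 took the log2 fold change to 0.21.

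Asic1, on chromosome 15 (99670368 to 99701130, plus strand), had 125.2, 62.19 and 80.56 CPM in knockout replicates 1 to 3, against 93.64, 40.2 and 86.64 CPM in control replicates 1 to 3. Replicate 2 was the lowest library of each group, and the groups overlapped. The highest library exceeded the lowest by a factor of 2.013 in the knockout and 2.329 in the control. The log2 fold change of 0.31 (SE 0.14, 95% interval -0.05 to 0.67, blocked edgeR adjusted p = 0.331) was smaller than these spreads. It passed with pair 3 left out (0.52, adjusted p = 0.00108). In the fit without the block it was -0.05 when knockout replicate 1 was left out and -0.004 when control replicate 2 was.

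Asic2, on chromosome 11 (80880169 to 81968457, minus strand), encodes subunits that join the other ASICs and change their gating. It had 64.67, 60.61 and 58.85 CPM in knockout replicates 1 to 3, against 82.22, 73.79 and 59.49 CPM in control replicates 1 to 3. The knockout libraries lie close together, and control replicate 3 falls among them. The log2 fold change was -0.22 (SE 0.08, 95% interval -0.39 to -0.04), with a blocked edgeR adjusted p of 0.162. It was lower in 3 of 3 pairs, by only -0.02 in pair 3, and it passed when that pair was left out (-0.32, adjusted p = 0.0218).

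Per kilobase of annotated exon (GENCODE M21), Asic3 made up 68.8%, 71.0% and 69.3% of the summed Asic1, Asic2 and Asic3 level in knockout replicates 1 to 3, against 62.4%, 60.2% and 67.5% in control replicates 1 to 3. The shares of Asic3 did not overlap between groups. Asic2 made up 12.8%, 16.5% and 15.2% in the knockout replicates and 20.4%, 28.3% and 15.6% in the control replicates, with a small overlap through replicate 2 of the knockout and replicate 3 of the control. The Asic1 share was 15.5% ± 2.93 in the knockout and 15.2% ± 3.25 in the control (SD, n = 3 each). With 3 libraries against 3, an exact two-sided permutation test of such a share cannot give a p below 0.10, and none was run.

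**Figure D2:**
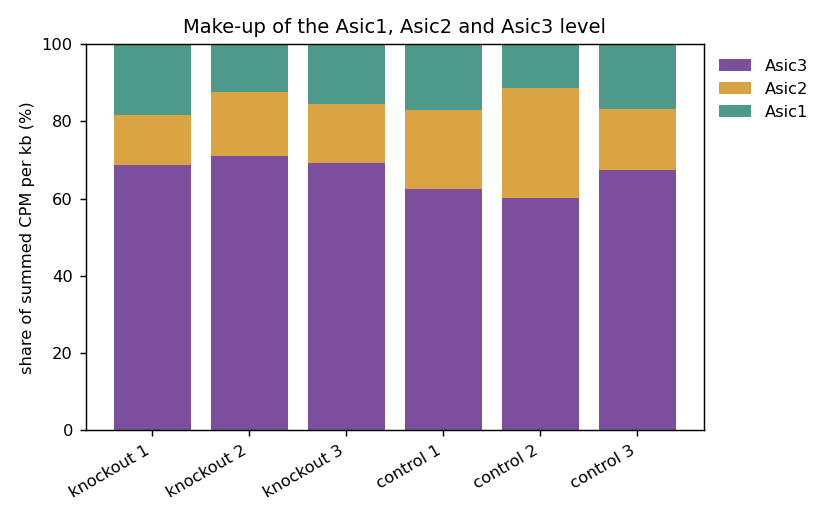
Share of Asic3, Asic2 and Asic1 in their summed level per kilobase of exon (y axis, percent) in each library. Asic3 takes 68.8% to 71.0% in the knockout libraries and 60.2% to 67.5% in the control libraries.

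Ano1, on chromosome 7 (144588549 to 144751974, minus strand), had 20.71, 15.49 and 17.77 CPM in knockout replicates 1 to 3, against 18.15, 12.46 and 18.4 CPM in control replicates 1 to 3. Replicate 2 was again the lowest of each group, and the groups overlapped. Its log2 fold change was 0.15 (SE 0.11, 95% interval -0.09 to 0.39, blocked edgeR adjusted p = 0.511). In the fit without the block it was -0.01 once control replicate 2 was left out.

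Ano3, on chromosome 2 (110655201 to 110950923, minus strand), showed the largest change of the 8 genes, with a knockout mean at 62.6% of the control mean. It had 292.4, 409.0 and 296.0 CPM in knockout replicates 1 to 3, against 458.5, 714.6 and 420.3 CPM in control replicates 1 to 3. The groups did not overlap, with the knockout below the control, as for 6.12% of all tested genes. The gap between them is small, with 409.0 CPM in the highest knockout library and 420.3 CPM in the lowest control library. Control replicate 2 was far above the other controls, and knockout replicate 2 was the highest of its group. The pairs had log2 ratios of -0.65, -0.81 and -0.51. Ano3 fell by 0.65 (SE 0.07, 95% interval -0.81 to -0.50, blocked edgeR adjusted p = 0.000549), and 556 of the 15043 tested genes had a larger absolute fold change in that fit. With each replicate pair left out in turn it was at -0.67, -0.57 and -0.73 without pairs 1, 2 and 3. It passed in each of these fits, which lean on variance estimates shared across genes. Without the block the log2 fold change was -0.68 (SE 0.23, edgeR adjusted p = 0.813). Leaving control replicate 2 out of that fit took it to -0.39 (SE 0.17, edgeR adjusted p = 0.937). Ano3 shares 0.845% of its exonic positions with Muc15 on the other strand, which had at most 10 counts in a library.

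**Figure D3:**
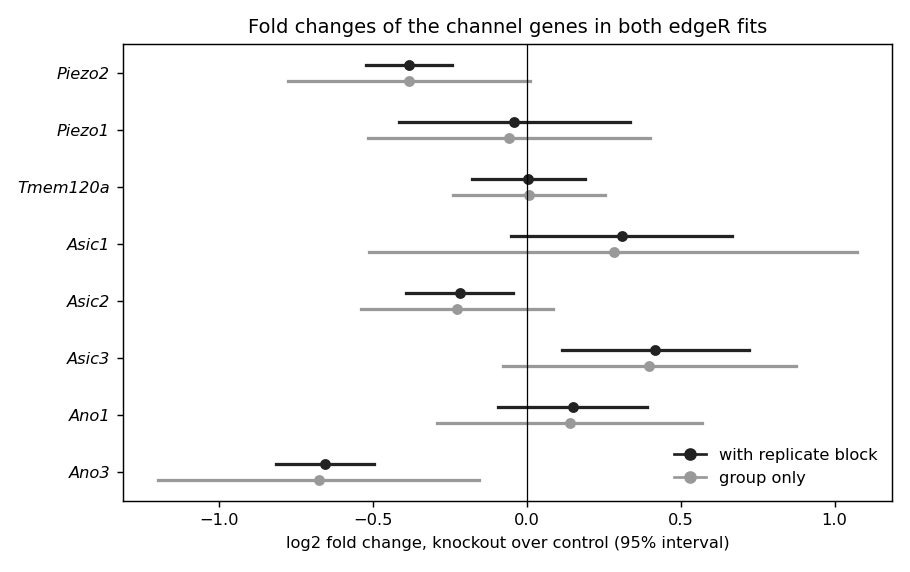
Log2 fold change of each gene, knockout over control (x axis), with its 95% interval, in the edgeR fit with the replicate block (dark) and with group only (grey). Both fits give nearly the same fold changes, and the blocked intervals of Piezo2, Asic2, Asic3 and Ano3 leave out 0, of which Piezo2 and Ano3 passed after adjustment over all genes.

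The submitters' own test gave like fold changes. In the authors' deposited table the log2 fold change was -0.678 for Ano3 (false discovery rate 0.0987), -0.382 for Piezo2 (0.449) and 0.398 for Asic3 (0.594), and 0 of the 8 genes passed the authors' combined limit on false discovery rate and fold.

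Levels of different genes were compared per kilobase of annotated exon. In the control libraries Ano3 was highest, with 73.6 ± 22.2 CPM per kilobase, followed by Asic3 with 52.0 ± 13.2 CPM per kilobase (SD, n = 3 each), and the ranges of these 2 genes overlapped. Piezo2 (26.3 ± 4.58 CPM per kilobase) lay below Asic3 and above Tmem120a (18.8 ± 0.153) in every control library. The ranges of Tmem120a and Asic2 (16.9 ± 2.70) overlapped, as did those of Asic2 and Asic1 (12.8 ± 5.06). Tmem120a lay above Asic1 in every control library. Ano1 (2.62 ± 0.538) and Piezo1 (0.642 ± 0.140) were lowest, without overlap with their neighbours in this order. In the knockout libraries Asic3 was highest, with 68.6 ± 11.3 CPM per kilobase against 46.1 ± 9.19 for Ano3, and the ranges of these genes did not overlap (61.3 to 81.6 for Asic3 and 40.5 to 56.7 for Ano3). The ratio of Asic3 to Ano3 per kilobase was 2.01, 1.08 and 1.53 in knockout replicates 1 to 3, against 0.929, 0.372 and 1.04 in control replicates 1 to 3. That it was higher in every knockout library follows from the separation of each gene given above and is not a further result. Piezo2 and Tmem120a overlapped in the knockout (17.4 to 24.0 and 17.3 to 20.2 CPM per kilobase). Annotated exon length includes exons that may not be used in the ganglion, which limits such levels.

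Across the 6 libraries the genes fell into patterns that cross the groups. Asic1, Asic3 and Ano1 were lowest in control replicate 2 and highest in knockout replicate 1. Ano3 was highest in control replicate 2 and lowest in knockout replicate 1. On the log2 scale, control replicate 2 lay 0.93, 0.67 and 0.44 below the mean of the 6 libraries for Asic1, Asic3 and Ano1, and 0.80 above it for Ano3. Knockout replicate 1 lay 0.70, 0.47 and 0.29 above the mean for the same 3 genes and 0.49 below it for Ano3. Piezo2 and Asic2 shared another pattern, being highest in control replicate 1 and lowest in knockout replicate 3.

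**Figure D4:**
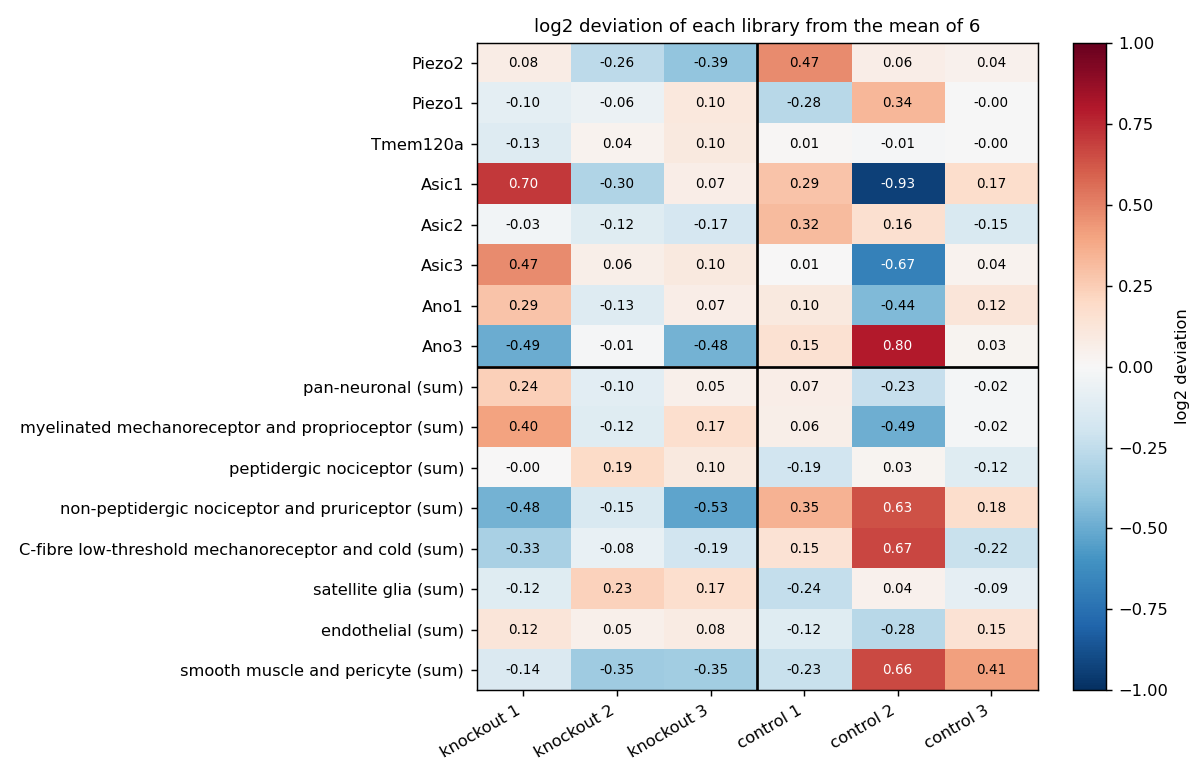
Log2 deviation of each library from the mean of the 6 libraries (colour and printed value) for the 8 genes (upper rows) and for the summed CPM of marker lists (lower rows), with knockout libraries left of the control libraries. Control replicate 2 is low for Asic1, Asic3, Ano1, pan-neuronal markers and myelinated neuron markers, and high for Ano3 and non-peptidergic markers.

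Of 4 marker lists of neuron classes, 3 were at an extreme in control replicate 2, as Asic1, Asic3, Ano1 and Ano3 were, and the peptidergic list was not. Markers of myelinated mechanoreceptors and proprioceptors, 17 of 17 tested, summed to 11807, 8189 and 10055 CPM in knockout replicates 1 to 3, against 9299, 6357 and 8826 CPM in control replicates 1 to 3, so replicate 2 was lowest in each group, as for Asic1 and Ano1. Of this list 5 rose and 0 fell, where 1.24% of all tested genes rose and 2.36% fell. The sum of pan-neuronal markers was also lowest in replicate 2 of each group. It was 25309, 19916 and 22181 CPM in knockout replicates 1 to 3. In control replicates 1 to 3 it was 22435, 18293 and 21084 CPM, so this pattern is not particular to myelinated markers. Markers of non-peptidergic nociceptors and pruriceptors, 20 of 20 tested, summed to 1671, 2090 and 1610 CPM in knockout replicates 1 to 3, against 2955, 3605 and 2631 CPM in control replicates 1 to 3. Here replicate 2 was highest in each group, as for Ano3, and 13 fell and 0 rose. For C-fibre low-threshold mechanoreceptors and cold-sensing neurons 11 of 12 marker names were tested. The name left, Tafa4, is a newer one of the tested gene Fam19a4. These markers summed to 327.5, 389.2 and 360.4 CPM in knockout replicates 1 to 3, against 454.7, 652.5 and 352.7 CPM in control replicates 1 to 3. This sum was also highest in control replicate 2 and lowest in knockout replicate 1, the groups overlapped, and 0 of the 11 passed. Peptidergic nociceptor markers, 12 of 12 tested, summed to 3109, 3542 and 3328 CPM in knockout replicates 1 to 3, against 2723, 3167 and 2862 CPM in control replicates 1 to 3. They were highest in knockout replicate 2 and lowest in control replicate 1, and 1 rose and 0 fell. In whole ganglia fewer cells of a type and less RNA per cell cannot be told apart, and the part of neuron class make-up in the changes of these channel genes was not tested. Smooth muscle and pericyte markers, 10 of 10 tested, were at 106.8 to 123.6 CPM in the knockout and 116.9 to 215.4 CPM in the control, highest in control replicate 2.

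Likeness was measured against 230 pathway and marker genes that averaged 1 CPM or more. Those whose log2 CPM most resembled Ano3 over the 6 libraries were Cd55, a marker of non-peptidergic neurons (Pearson's r = 0.994), and Mrgprb5, a receptor gene of the same class (0.981). Asic1 and Ano1 resembled each other (0.992), Ano1 was closest to Itpr3, an inositol trisphosphate receptor gene (0.994), and Asic3 was closest to Clcn2, a chloride channel gene (0.988). Piezo2 was closest to Tmem63c (0.950) and to Ret (0.948), Asic2 to Nedd4l, a ubiquitin ligase gene (0.906), Tmem120a to Pmp22, a myelin gene (0.948), and Piezo1 to Pvalb (0.950). These values describe 6 libraries that share their scaling and the difference between groups, and they carry no test.

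Among the other genes of mechanical sensing Tmem63a, Tmem63c and Cdh1 fell. Leaving out Piezo1, Piezo2 and Tmem120a, 32 genes of the mechanotransduction list were tested, of which 3 fell, 0 rose and 29 did not pass in the blocked fit, where 2.36% of all genes fell and 1.24% rose. Their median log2 fold change was -0.01, against 0.01 over all tested genes, with 14 higher and 18 lower. With the 3 channel genes included, 4 of 35 fell. No test of the list as a whole was made. Tmem63a and Tmem63c encode members of a family of channels opened by osmotic or membrane stretch. Tmem63a had 25.16, 25.89 and 24.98 CPM in knockout replicates 1 to 3, against 37.24, 30.52 and 34.01 CPM in control replicates 1 to 3, and fell by 0.42 (SE 0.09, edgeR adjusted p = 0.0313 with the block). Its groups did not overlap. Tmem63c fell by 0.43 (SE 0.08) to 78.6 ± 21.0 CPM in the knockout, against 104.6 ± 12.96 CPM in the control (SD, n = 3 each), and its groups overlapped. Cdh1, the gene of the adhesion protein E-cadherin, fell by 0.44 (SE 0.07) to 137.0 ± 3.69 CPM in the knockout, against 186.8 ± 21.1 CPM in the control. Tmem120b, the paralogue of Tmem120a, did not pass (-0.04, SE 0.11). Stoml3 was not tested.

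Among acid-sensing genes beyond the ASICs, Magi1 fell. Of 16 tested genes of that list other than Asic1, Asic2 and Asic3, 1 fell, 0 rose and 15 did not pass, with a median log2 fold change of 0.06. Over all tested genes 2.36% fell and 1.24% rose in the blocked fit. Magi1, a scaffold protein gene, had 224.3, 235.1 and 187.5 CPM in knockout replicates 1 to 3, against 301.0, 282.7 and 253.9 CPM in control replicates 1 to 3, without overlap. It fell by 0.38 (SE 0.07, edgeR adjusted p = 0.0106 with the block). Lin7b, another scaffold gene, was at 0.34 (SE 0.10) and did not pass (adjusted p = 0.102). Trpv1, the capsaicin receptor that protons also open, was at -0.13 (SE 0.10). Asic4 and Asic5 were among the 7 names of this list that were not tested, and so was Pacc1, a newer name of the tested gene Tmem206.

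In the anoctamin and chloride channel list 2 of 34 tested genes, Ano1 and Ano3 included, fell and 0 rose, with a median log2 fold change of 0.04. Leaving out Ano1 and Ano3, 1 of 32 fell, 0 rose and 31 did not pass. Over all tested genes 2.36% fell and 1.24% rose in that fit. The genes that fell were Ano3 and Kcnt1, which encodes the sodium-activated potassium channel that ANO3 was reported to enhance in rat. Kcnt1 had 152.3, 146.4 and 118.1 CPM in knockout replicates 1 to 3, against 230.0, 214.3 and 195.6 CPM in control replicates 1 to 3. The groups did not overlap, and Kcnt1 fell by 0.62 (SE 0.07, edgeR adjusted p = 0.000409 with the block). The other 7 tested anoctamin genes did not pass, with log2 fold changes from -0.17 (Ano8) to 0.58 (Ano7) and a lowest adjusted p of 0.243. Lrrc8b, a subunit gene of volume-regulated anion channels, was at -0.44 (SE 0.12, adjusted p = 0.0767).

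**Figure D5:**
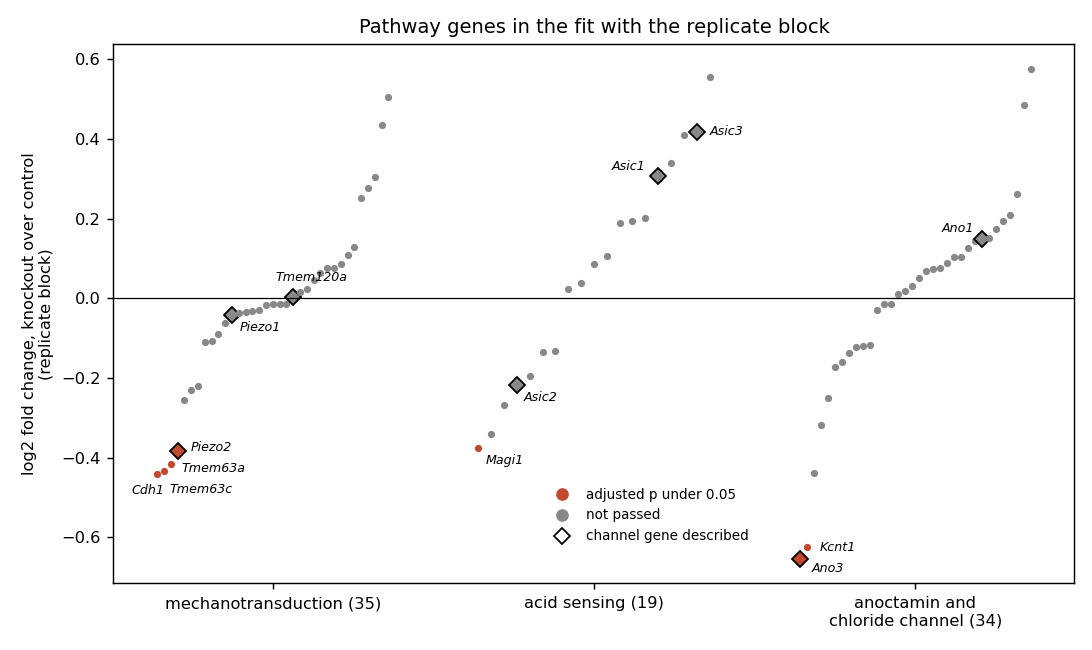
Log2 fold change, knockout over control, in the fit with the replicate block (y axis) of each tested gene of the mechanotransduction (35), acid-sensing (19) and anoctamin and chloride channel (34) lists, ordered within a list. Red marks genes with an adjusted p under 0.05, all of which are lower in the knockout, and diamonds mark the 8 channel genes.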

How the data were processed

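Poly(A) RNA of dorsal root ganglia was sequenced, 3 knockout and 3 control libraries, with groups taken from the labels. The submitters' processing notes name STAR, cutadapt, DESeq2 and mm10. No counting tool, annotation, strand setting or version is named there. The authors deposited whole-number raw counts, a normalized signal (each library's counts over 1 size factor, as checked) with its mean, regularised log2 values (not used here), and their log2 fold change, p-value and false discovery rate. Genes were filtered with filterByExpr (15043 of 16613 kept), scaled by TMM and tested with edgeR 4.0.16 (R 4.3.3) by a robust quasi-likelihood fit, group only, with Benjamini-Hochberg adjustment over all tested genes at 0.05. DESeq2 1.42.0, limma-voom (limma 3.58.1), other scalings, no filter and omitted libraries were alternatives. At 3 counts a library reads 0.156 to 0.186 CPM, and such limits cover counting error only.

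Deviations of same-numbered libraries from their group means correlated at 0.53, 0.30 and 0.17 for pairs 1, 2 and 3 over 15043 genes. Each exceeds 0.1, the level at which numbers were taken to pair the libraries, as did knockout replicate 3 with control replicate 2 (0.14). Deviations of 3 libraries from their mean sum to 0, so these correlations are tied to one another. Passing 0.1 is therefore weak support for the pairing, above all for pair 3. The labels do not say what a number shares. Replicate number was therefore also fitted as a block, beside the fit without it.

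The 8 genes and the lists were chosen with earlier results of these data known. Named list genes are those that passed in the blocked fit and the 2 non-members of smallest p per list without the block; Tmem120b, Trpv1 and the other anoctamins were added for their family or function, after values were seen. Log2 CPM used a prior count of 2. Exon lengths and coordinates are from GENCODE M21 (GRCm38, the mm10 assembly).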

Additional observations from a re-analysis of the deposited data

How the results depend on the processing

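All calls among the 8 genes depend on pairing same-numbered libraries. Without a replicate block, 0 of the 8 genes passed with all libraries in edgeR under TMM, DESeq2 size factors, no filter or pan-neuronal scaling, in DESeq2 and in limma-voom, and 0 with any library left out. With the replicate block 2 passed in edgeR, in limma-voom and under pan-neuronal scaling, and 3 in DESeq2, with 1 to 5 when a pair was left out. Over all genes, where edgeR called 0, the counts were 542 in edgeR with the replicate block, 65 in DESeq2, 423 in DESeq2 with the block, 567 in limma-voom with the block, and 2 and 923 under pan-neuronal scaling without and with the block. A single library left out gave 0, and a pair left out of the blocked fit gave 208, 819 and 897 without pairs 1, 2 and 3.

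For the lists, the blocked edgeR and limma-voom fits each called 4 mechanotransduction, 1 acid-sensing and 2 anoctamin genes, blocked DESeq2 3, 2 and 2, and blocked pan-neuronal scaling 5, 2 and 5. DESeq2 without the block called 1 anoctamin gene. Leaving out a pair gave 1 to 4, 0 to 5 and 2 to 4.

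Among the 8 genes, signs changed only in those that did not pass with all libraries. Tmem120a was at -0.07 and -0.08 under pan-neuronal scaling without and with the block, and ran from -0.04 to 0.07 with a library or pair left out. With a single library left out Piezo1 ran from -0.21 to 0.13, Asic1 from -0.05 to 0.49 and Ano1 from -0.01 to 0.24, and with a pair left out of the blocked fit from -0.16 to 0.15, 0.17 to 0.52 and 0.08 to 0.25. Piezo2, Asic2, Asic3 and Ano3 kept their direction in all of these alternatives, at -0.53 to -0.24, -0.35 to -0.13, 0.21 to 0.60 and -0.85 to -0.39. The cause of these shifts was not tested. Pan-neuronal scaling moved the median of all genes to -0.07. Depth limits Piezo1 most.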
